A study of Mus musculus with 7 samples.

Results

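Gene expression in mesoderm differentiated in culture from mouse ES cells was set against expression in ectoderm and endoderm made from the same cells. The comparison used 3 of the 7 arrays of the study, named Pme (paraxial mesoderm), Ect (ectoderm) and End (endoderm). A gene was called higher in Pme where its signal there was at least 2 times the higher of its signals in Ect and End, and lower where it was at most the lower of these signals divided by 2, after signals under a background of 50 had been raised to 50. Of 18194 genes, 376 (2.07%) were higher in Pme than in both other layers and 73 (0.401%) were lower, which left 449 genes for description. The counterpart calls for the other layers were 332 genes (1.82%) higher and 213 (1.17%) lower in Ect, and 339 (1.86%) higher and 242 (1.33%) lower in End, so that genes low in 1 layer alone were fewest for Pme.

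All 3 cultures came from SK7, a male ES cell line, labelled as strain ICR, that carries a GFP reporter driven by the Pdx1 promoter, and the undifferentiated line was hybridized as SK7_ESC. The remaining arrays were Brain, Liver and Sk_muscle, from adult male ICR mice older than 9 weeks. Each array measured RNA from 1 sample, no sample had a replicate, and a ratio between arrays therefore has no error and no test. SK7 is a single line, and the sources used here do not say how the cells were cultured or purified or for how many days they were differentiated. The deposited values are linear fluorescence intensities, and between 7824 and 9086 genes per array were at or above background, with 8584 in Ect and 8291 in End against 8627 in Pme. In RNA from whole cultures, fewer cells that express a gene and less RNA of it in each cell cannot be told apart.

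Mesoderm forms between ectoderm and endoderm at gastrulation and is divided by position. Paraxial mesoderm flanks the neural tube and segments into somites under Tbx6, Mesp2 and the Notch pathway, while lateral plate mesoderm, patterned by BMP signals and marked by Hand and Foxf factors, gives rise to the heart, the body wall, the smooth muscle of vessels and the connective tissue of the limbs. Mesenchymal cells of either origin leave the epithelial state, respond to platelet-derived growth factor and lay down collagen-rich matrix.

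The 376 higher genes had a median ratio of 2.80 and a median signal of 272.1 in Pme. The ratio reached 4 for 84 of them and 8 for 18, and the Pme signal reached 1000 for 38. In 116 genes both other layers were under background, so that the ratio is a lower bound, given below as "at least". Ect was the brighter of the other layers for 247 of the higher genes and End for 129. The size rule cut through a continuous range of values. Slc7a2, at 92.9 in Ect and 27.1 in End against 185.8 in Pme, was just inside it and Prrg1, at 108.1, 88.7 and 215.8 in the same order, was just outside with 1.996. Among lower genes Golm1 was just inside, at 1123, 782.3 and 390.7, and Plekha8 just outside, at 439.2, 915.2 and 219.8.

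**Figure D1:**
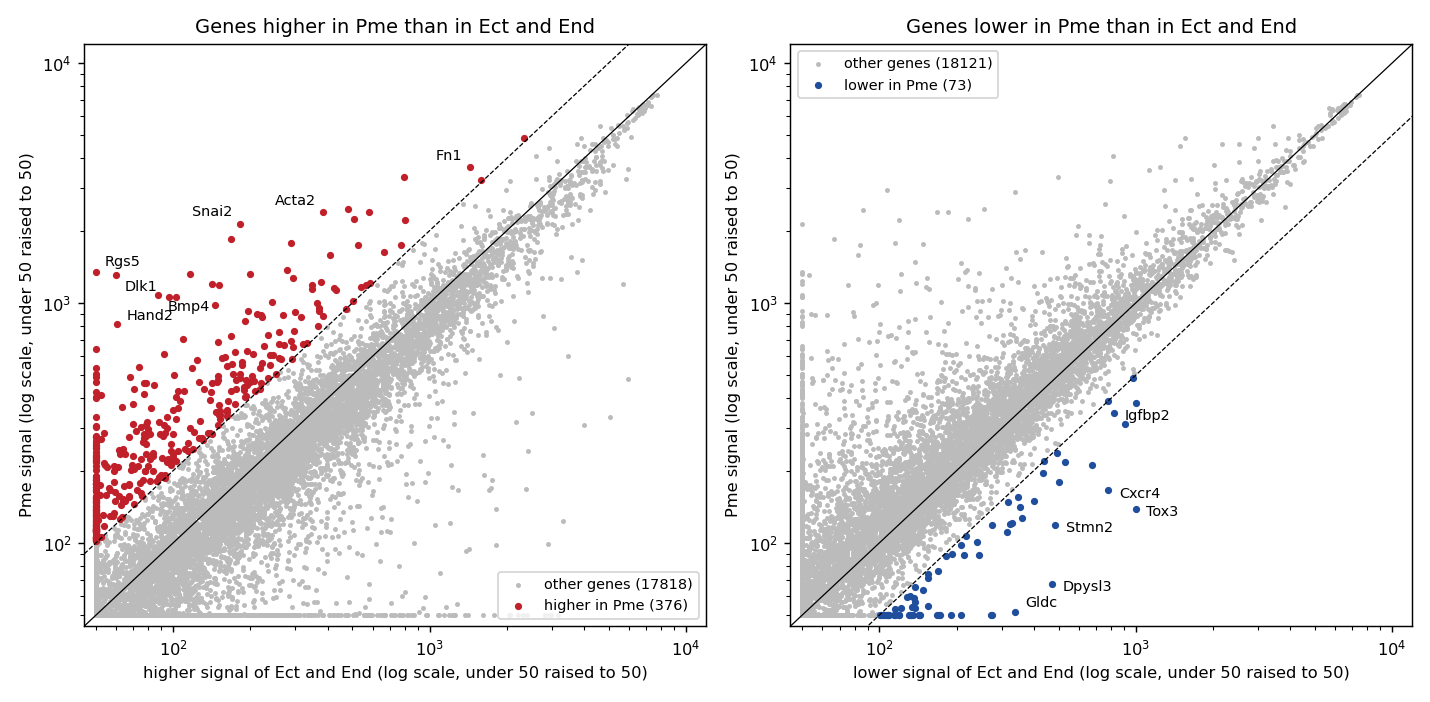
Signal of 18194 genes in Pme (vertical axis, log scale) against the higher (left) or the lower (right) of the signals in Ect and End (horizontal axis, log scale), with signals under 50 raised to 50. Solid lines mark equal signals and dashed lines the 2-fold limit. The 376 higher genes (red) spread from just above 100 to 4846.5 in Pme, while the 73 lower genes (blue) end at 486.4 in Pme.

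Most genes that define paraxial mesoderm were under background in the culture labelled as such. Of 26 measured genes of paraxial mesoderm and somites, 2 were higher in Pme than in the other layers and 1 was lower. In Pme 21 were under background, 11 of them in all 3 layers. Over all 18194 genes, 9567 were under background in Pme and 8532 in all 3 layers. These counts are the base for each list below. Tbx6, the T-box factor of presomitic mesoderm, had signals of 6.5 in Ect and 13.5 in End against 17.7 in Pme. Msgn1 (2.7 in Pme), Mesp2 (11.5), Meox1 (16), Pax1 (2.3), Pax9 (16.3) and Foxc2 (13.6), factors of presomitic mesoderm and of the somite, were likewise under background. The 2 higher members were Pdgfra and Papss2, an enzyme of sulfate activation used in cartilage matrix, which had 1 in Ect and 0.6 in End against 102.4 in Pme and lost its call after quantile normalization. Foxc1 (82.7 in Pme, against 27.8 and 18.1 in Ect and End) and Tbx18 (69.9, against 21.7 and 7.9) were above background in Pme alone and short of the 2-fold limit. Dll3, a Notch ligand of the segmenting mesoderm and of neural progenitors, was lower in Pme, at 29.7, than in Ect (236.3) and End (135.3), and Dll1 and Pax3 were brightest in Ect. The summed signal of the list was 1842 in Ect and 1646 in End against 1691 in Pme. The array is therefore called Pme below, as a name and not as a statement of cell type. The authors state that marker gene expression established the identity of each germ layer, and their text does not name the genes used for it. T and Ripply1 were not analysed here.

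Markers of differentiated mesoderm derivatives were also near background. All 14 skeletal muscle genes were under background in Pme, with a highest signal of 18.5 and a summed signal of 63.8, against 50019 in Sk_muscle. Of 16 cardiomyocyte genes 13 were under background, among them Myh6 (2) and Actn2 (1.2), and Tnni1, Tnnc1 and Tnnt2 were between 67.5 and 88.1. Of 14 blood cell genes 13 were under background, and none of the globin genes measured exceeded 7.5. Of 20 endothelial genes 15 were under background in Pme, Cdh5 and Tie1 at 1.5 and 0.5, while Tek (95.3), Fli1 (73.7) and Kdr (66.7) were above it in Pme alone and short of the limit. Cd34, a sialomucin of endothelial, blood and stromal cells, was the 1 endothelial member called higher, at 59.2 in Ect and 9 in End against 162.7 in Pme. None of 15 genes of intermediate mesoderm and none of 14 genes of cartilage and bone were called, with Osr1 at 29.9, Wt1 at 45.5, Sp7 at 19.7 and Acan at 8.1 in Pme. As 2.07% of all genes were higher, 0 or 1 higher member in these or other lists of such size says little.

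Pdgfra, Hand2 and Acta2, which served as markers of this comparison, were each far brighter in Pme than in any other culture. Pdgfra, the receptor for platelet-derived growth factor A and a surface marker of mesoderm, had 76.1 in SK7_ESC, 42.5 in Ect and 96.2 in End against 1062 in Pme, a ratio of 11.04. Whether the cells were sorted on a surface marker is not stated, and the level of a gene used in a sort would be fixed by it. All 3 of its probe sets were brightest in Pme, at 1062, 228.4 and 183.6, against at most 96.2 in Ect and End. Hand2, a basic helix-loop-helix factor of the lateral plate and the heart, had 60.6 in Ect and 19.7 in End against 820.8 in Pme, a ratio of 13.5, and was under background in the 4 remaining arrays. Its other probe sets were dimmer, at 68.8 and 21.2 in Pme and at most 7.9 in the other layers, and the geometric mean of all 3 lowered the ratio to 2.12. Acta2, the smooth muscle actin, had 339.8 in SK7_ESC, 384 in Ect, 167.2 in End, 2383 in Pme and 1587 in Sk_muscle, a ratio of 6.21. This value comes from a probe set whose identifier marks sequence shared with other transcripts, and its other probe sets, at 37.3 and 21 in Pme, were under background everywhere, so that the call is lost without it.

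The largest ratio was that of Rgs5, a regulator of G protein signalling that is abundant in pericytes. It had 5.9 in Ect and 20.5 in End against 1351 in Pme, at least 27.0-fold higher, and 3072 in Sk_muscle. All 4 of its probe sets were above 400 in Pme and under 21 in the other layers. Dlk1, an imprinted transmembrane relative of the Notch ligands, followed with 53 in Ect and 59.7 in End against 1306 in Pme, a ratio of 21.9. That signal also rests on a probe set of shared sequence, and its other probe set had 10.3 in Pme.

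**Figure D2:**
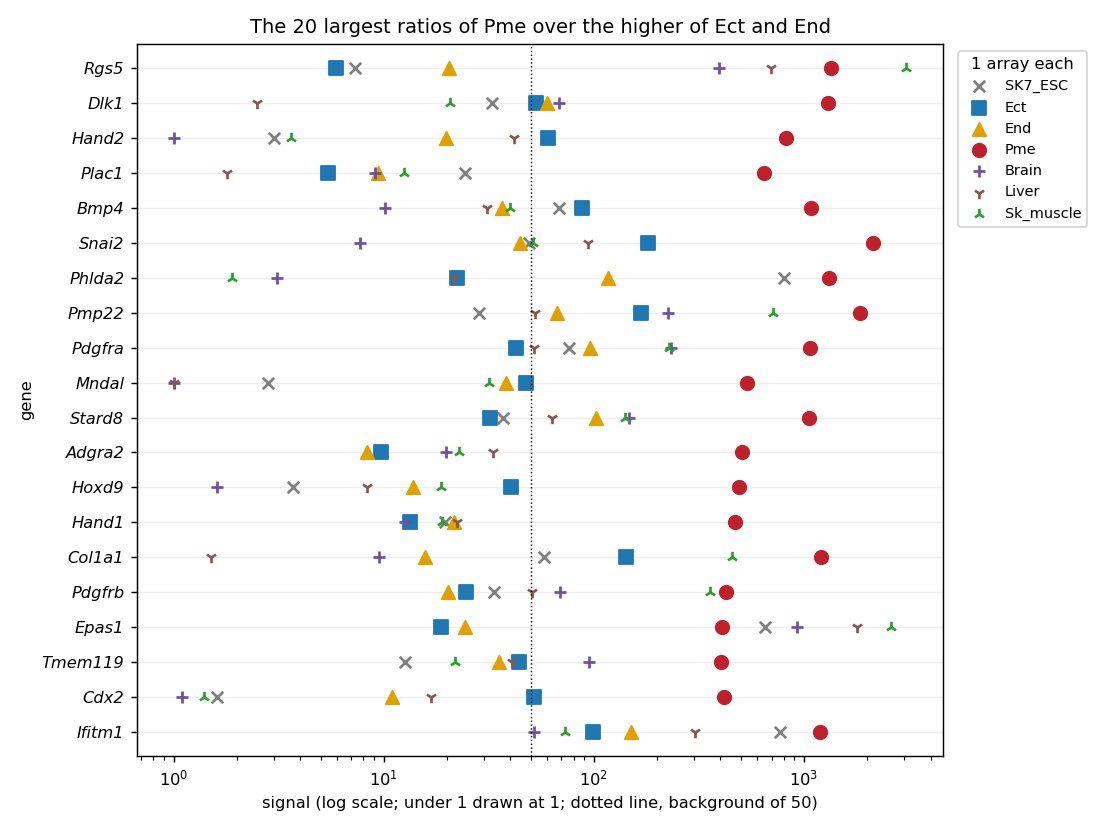
Signals (horizontal axis, log scale) in the 7 arrays, 1 array each, of the 20 genes with the largest ratios of Pme over the higher of Ect and End, from Rgs5 (at least 27.0) to Ifitm1 (7.85). Red circles (Pme) lie to the right of the blue squares (Ect) and yellow triangles (End) throughout; Rgs5 and Epas1 are brighter in Sk_muscle than in Pme.

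Several of the leading genes are known from the placenta or from posterior embryonic tissue. Plac1, an X-linked gene of the trophoblast, had 5.4 in Ect and 9.4 in End against 642.5 in Pme, at least 12.8-fold higher, and was under background in all other arrays. Phlda2, an imprinted gene that restrains placental growth, had 22.4 in Ect and 116.6 in End against 1319 in Pme, and 799.3 in SK7_ESC. Cdx2, a caudal-type homeobox factor of the trophectoderm, the intestine and the posterior body axis, had 52.1 in Ect and 10.9 in End against 414.7 in Pme and did not pass 16.8 elsewhere. Other measured trophoblast genes were not called: of 12, the 2 higher were Plac1 and Cdx2, the keratins Krt8 and Krt18, at 2969 and 2451 in Pme, were brighter still in End, Elf5 and Tpbpa were at 1.5 and 4.6 in Pme, and Ascl2, Cited1, Krt7 and Plet1, brightest in End, did not pass 18.8 in Pme.

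The remaining genes among the largest ratios came from varied families. Pmp22, a tetraspan membrane protein of myelin and of growth-arrested fibroblasts, had 167.6 in Ect and 66.4 in End against 1855 in Pme. Stard8, a START domain protein, had 32, 102.3 and 1056 in the same order. Adgra2, an adhesion receptor of the G protein-coupled family, had 9.7, 8.3 and 507.5. Its signal was under background in every array but Pme. Epas1, the oxygen-regulated transcription factor HIF-2 alpha, had 18.8 in Ect and 24.4 in End against 405.2 in Pme, but 651.9 in SK7_ESC and 2583 in Sk_muscle. For this gene the layers other than Pme were the low arrays. Tmem119, a membrane protein of osteoblasts and microglia, was at 44.1, 35.2 and 400.7, and Mndal, a DNA-binding protein of the interferon-inducible Ifi200 family, at 47.5, 38.1 and 537.8 in Ect, End and Pme.

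Factors of lateral plate and cardiac mesoderm were split. Of 18 such genes, 7 were higher than in both other layers and 0 were lower, and the summed signal was 1490 in Ect and 1992 in End against 4356 in Pme. Hand1, the partner of Hand2 in the lateral plate and in the extraembryonic mesoderm, had 13.3 in Ect and 21.5 in End against 469.5 in Pme, at least 9.39-fold higher. Foxf1, a forkhead factor of the splanchnic mesoderm, had 23.4, 13.1 and 278.4. Tbx20 and Tcf21, factors of the heart and of visceral mesenchyme, reached 136.9 and 125 in Pme and were under background in both other layers on their main probe sets, and Tbx3 was at 8.1, 53.5 and 130.5. Another probe set of Tbx20 had 154.2 in End and 566.7 in Pme. The other members were not called: Nkx2-5, Tbx5, Gata5, Mef2c and Foxf2 were under background, Irx3 and Irx5 were brightest in Ect, and Gata4 (98.6 in Pme) and Gata6 (408.6) were brightest in End, at 247.7 and 999.7.

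Transcription factors of mesenchyme made up the next group, with 9 of 27 higher and 0 lower. Over all genes 2.07% were higher and 0.401% lower. At so low a share of lower genes, 0 lower members in this or another list says little. Snai2, a zinc finger repressor of epithelial genes, had 181.8 in Ect and 44.4 in End against 2139 in Pme, a ratio of 11.8, and did not pass 93.8 in the other 4 arrays. Msx1, a homeobox factor downstream of BMP signals, had 63.3, 60.6 and 368 on a probe set of shared sequence, and its other probe set, at 60.4 in Pme, was not called. Prrx2 and Prrx1, paired-related factors of limb and head mesenchyme, had 261.2 and 304.7 in Pme, against at most 75.1 in the other layers. Twist2 and Twist1, basic helix-loop-helix factors of mesenchyme, had 232.8 and 199.5 in Pme, against at most 58.7. Not all genes linked to the mesenchymal state followed. Zeb1, Zeb2, Meis1, Meis2, Nr2f1 and Nr2f2 were brighter in Ect than in Pme, with Zeb1 at 665.7 in Ect and 472.2 in Pme, and Snai1 was at 57 in Pme. The median log2 ratio of Pme over the higher of the other layers was 0.00 in this list, as it was over all genes. Genes under background in all 3 layers, 6 of the 27 and 8532 of all 18194, have a log2 ratio of 0 by rule. The value of 0.00 is therefore no base for expressed genes.

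Growth factor receptors of mesenchyme were represented by few members. Of 21 PDGF pathway and surface genes 5 were higher and 0 lower. Pdgfrb, the receptor for platelet-derived growth factor B, had 24.6 in Ect and 20.1 in End against 423.5 in Pme, at least 8.47-fold higher, with 76.9 in Pme for its other probe set. Cd44, the hyaluronan receptor, had 149.6, 90.8 and 688.7, and Lrp1 and Axl were the other called members. Thy1 (24.5 in Pme), Nt5e (17.7) and Eng (32.4), surface markers of cultured stromal cells, were under background in all 3 layers. Pdgfc, a ligand of the alpha receptor, was at 297.5 in Ect and 214.8 in Pme, and Pdgfa was brightest in End.

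Of 30 genes of the BMP and TGF-beta pathways 9 were higher in Pme, 0 were lower and 21 were not called. Bmp4, the ligand that patterns ventral and lateral mesoderm, had 67.9 in SK7_ESC, 87.6 in Ect and 36.7 in End against 1084 in Pme, a ratio of 12.4. Bmp5, a related ligand, had 23.5, 67.4 and 176.8 in Ect, End and Pme, and Tgfb2 108, 168.7 and 724.9. The intracellular inhibitors Smad6 (44.4, 226.8 and 663.7) and Smad7 (50.4, 81.2 and 224), the pseudoreceptor Bambi (46.9, 221.6 and 871.4) and the secreted antagonist Grem1 (40.1, 43.8 and 249) were called too. Smad6, Smad7 and Bambi are known as feedback inhibitors that the pathways themselves induce. The Id genes, which BMP signals induce, did not differ in the same way, with Id1 at 301.9, 948.9 and 593.7, Id2 brightest in Ect, and Id3 at 878.6, 675.9 and 991. Among ligands Bmp2 (436.2 in End and 252.1 in Pme), Bmp7 (89 and 38.7) and Tgfb1 (236.1 and 207.8) were brightest in End. The antagonist gene Fst was brightest in Ect, at 205.8 against 57.6 in Pme, and those of noggin (Nog) and chordin (Chrd) were under background.

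Insulin-like growth factor genes and other secreted factors included 10 of 32 higher members and 2 lower. Igf2, a fetal growth factor, had 185.7 in Ect and 583 in End against 2384 in Pme, a ratio of 4.09, and Igf2r, its clearance receptor, had 264.4, 314 and 876.2. The IGF binding protein genes were split. Igfbp7, Igfbp3, Igfbp4 and Igfbp5 were higher in Pme, with Igfbp4 at 665, 340.2 and 1631, whereas Igfbp2 was lower, at 820.8, 2511 and 349. Wnt5a, a ligand of noncanonical Wnt signalling in limb and body wall mesenchyme, had 92.5, 30.1 and 613.3, a ratio of 6.63. Cxcl12, the chemokine of stromal cells, had 220.2, 55.9 and 891.2, whereas the gene of its receptor, Cxcr4, was lower in Pme, at 781.4 in Ect and 1711 in End against 165.6 in Pme. Ligand and receptor thus lay on opposite sides of the comparison. Sfrp1, a secreted inhibitor of Wnt ligands, was also lower, at 328.8, 1198 and 120.7.

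Matrix genes gave more calls than any other of the 28 lists. Of 35 genes of fibrillar collagen and matrix, 17 were higher and 0 lower, and the summed signal was 7318 in Ect and 5372 in End against 22577 in Pme. The median log2 ratio of the list was 0.89. It was 0.00 over all genes, where those under background in all 3 layers have a value of 0 by rule. Col1a1 and Col1a2, the chains of type I collagen, had 141.6 and 289.3 in Ect, 15.7 and 115.3 in End, and 1204 and 1773 in Pme, ratios of 8.51 and 6.13. Bgn, the proteoglycan biglycan, had 482.4, 256.7 and 2464. Postn, a matrix protein of connective tissue and heart valves, had 13.8, 8.5 and 230.9, at least 4.62-fold higher. Col6a1 and Col3a1 were at 1267 and 1182 in Pme, against at most 349 in the other layers. Fibronectin (Fn1) had the brightest signal of the group, 3686 in Pme, and also 1248 in Ect and 1435 in End. The basement membrane chain Col4a1 was brighter in End, at 711.7, than in Pme, at 575.1, and Eln, Mgp, Lum, Mfap5, Col12a1 and Col6a3 were among 8 members under background in Pme. Genes of elastic fibres were thus found at both ends of the list, since Fbln2 and Efemp1 were called higher, at 504.4 and 630.3 in Pme, and Eln, the elastin gene, was at 11.6.

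Enzymes that process or degrade matrix followed, with 9 of 27 higher, 0 lower and a median log2 ratio of 0.72. Mmp2, a gelatinase, had 108.8 in Ect and 82.9 in End against 704.4 in Pme, a ratio of 6.47. P4ha2, a subunit of collagen prolyl hydroxylase, had 43.7, 43.6 and 255. Lox, which cross-links collagen and elastin, had 61.6, 29.4 and 242.8, and Pcolce, which enhances removal of the procollagen propeptide, had 523.7, 84.1 and 1746. Serpinf1, an antiangiogenic serpin, and the metalloproteinase inhibitor Timp1 were called as well. Serpinh1, the collagen chaperone, was at 585.1, 1055 and 1928 and missed the limit with a ratio of 1.83. Mmp14 was level between End, at 400.9, and Pme, at 402.9.

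Genes of the contractile apparatus and the actin cytoskeleton had 9 higher members of 37 and 0 lower. Beside Acta2 these were Csrp2, a LIM protein of smooth muscle (497.7 in Ect and 795 in End against 3348 in Pme), the transgelin gene Tagln (142.4, 54.4 and 464.5), the cardiac actin gene Actc1 (31.3, 24.9 and 142.3), the filamin Flnc (41, 31.7 and 137.5), the tropomyosin Tpm2 (179, 295 and 767.3), and Palld, Csrp1 and Cald1. Cnn1 (21.4 in Pme), Myh11 (7.7), Des (36.3) and Actg2 (19.1), which mark mature smooth muscle, were under background in all 3 layers. Myocd, the coactivator that drives the smooth muscle program, was at 1.1 in Ect and 281 in End against 17.7 in Pme. Srf, the factor with which it acts, was at 212.6, 249 and 312.6. Without probe sets of shared sequence the count of higher members was 5 in place of 9. That setting also left out identifiers ending in _a_at, which mark transcripts of the same gene and which Csrp2, Tpm2 and Csrp1 have. Of 17 targets and effectors of YAP and TEAD, which respond to tension on the actin cytoskeleton, 1 was higher, Axl, and Ccn1 (563.3, 797.7 and 839.4) and Ccn2 (532.9, 81.5 and 173.9) were not.

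Promoter sequences of 288 of the 376 higher genes were found by symbol in a RefSeq table of GRCm38.p6, which holds 250 bases before and 50 after each start. The serum response factor site known as the CArG box, searched on both strands in its strict form (CC, 6 bases that are each A or T, then GG, with no mismatch), lay in 9 of the 390 promoters of these genes (2.31%), in 0 of 83 promoters of the lower genes and in 1.63% of all 32851 promoters. In the contractile list it lay in 7 of 40 promoters (17.5%), and of the 7 higher members of that list with a promoter in the table only Actc1 had a match, which begins 47 bases before the start. GGAATG, bound by TEAD factors, lay on either strand in 74 of 390 promoters of higher genes (19%), 7 of 83 of lower genes (8.43%), 15 of 40 of the contractile list (37.5%) and 14.7% of all promoters. The motifs overlapped in 6 promoters of the whole table. The promoters of Actc1 (chr2:114052826-114053125, minus strand) and of Acta2 (chr19:34255324-34255623, minus strand) are printed as examples of each match among genes high in Pme, 5′ to 3′, with the CArG box in capitals in Actc1 and GGAATG in capitals in Acta2, where it begins 146 bases before the start; the choice of Acta2 was made after its match was seen.
Actc1: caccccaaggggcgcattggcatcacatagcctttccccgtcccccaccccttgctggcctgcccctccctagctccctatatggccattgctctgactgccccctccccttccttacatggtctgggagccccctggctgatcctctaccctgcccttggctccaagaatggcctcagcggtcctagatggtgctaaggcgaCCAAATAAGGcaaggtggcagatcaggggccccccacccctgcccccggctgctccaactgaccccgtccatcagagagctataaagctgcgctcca
Acta2: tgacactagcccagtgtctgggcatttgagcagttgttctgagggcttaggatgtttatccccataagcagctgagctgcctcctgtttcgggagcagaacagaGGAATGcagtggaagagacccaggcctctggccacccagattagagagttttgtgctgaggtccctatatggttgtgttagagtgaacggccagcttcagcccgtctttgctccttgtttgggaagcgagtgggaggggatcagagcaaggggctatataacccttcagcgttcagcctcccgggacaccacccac
A match is a run of letters in this window, binding was not measured, and near matches, which Acta2 and other promoters may hold, were not counted, so that no match does not show that the factor has no site there.

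Hox genes divided by paralogue group, which follows position along the body axis from the hindbrain (low numbers) to the tail (high numbers). Of 16 measured genes of groups 8 to 13, 8 were higher in Pme and 0 lower, and their median log2 ratio was 0.78. Of 17 genes of groups 1 to 7, 2 were higher in Pme, whereas 6 met the same rule for Ect. Hoxd9 had 40.1 in Ect and 13.7 in End against 489.3 in Pme, at least 9.79-fold higher, and Hoxd8 had 53.7, 8.5 and 285.8. Hoxa10, Hoxd10 and Hoxa11, at 200.8, 188.5 and 164.2 in Pme, were under background in both other layers. Hoxa9, Hoxc8 and Hoxc10 were brighter in Pme, at 587.3, 285.2 and 180.9, but also above background in Ect, at 259.1, 100.1 and 86.4. Group 13 was low, with Hoxd13 at 70.6 and Hoxa13 at 29.2 in Pme. Among anterior genes Hoxb2 (591.4 in Ect and 25.1 in End against 127.3 in Pme), Hoxb3 (575.7, 14.5 and 179) and Hoxb4 (243, 7 and 32) were highest in Ect. Hoxb6 (27.3, 4.2 and 177.4) and Hoxd1 (19.3, 4.7 and 109.3) were the 2 members higher in Pme. With a background of 100 the higher members numbered 5 in groups 8 to 13 and 0 in groups 1 to 7.

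**Figure D3:**
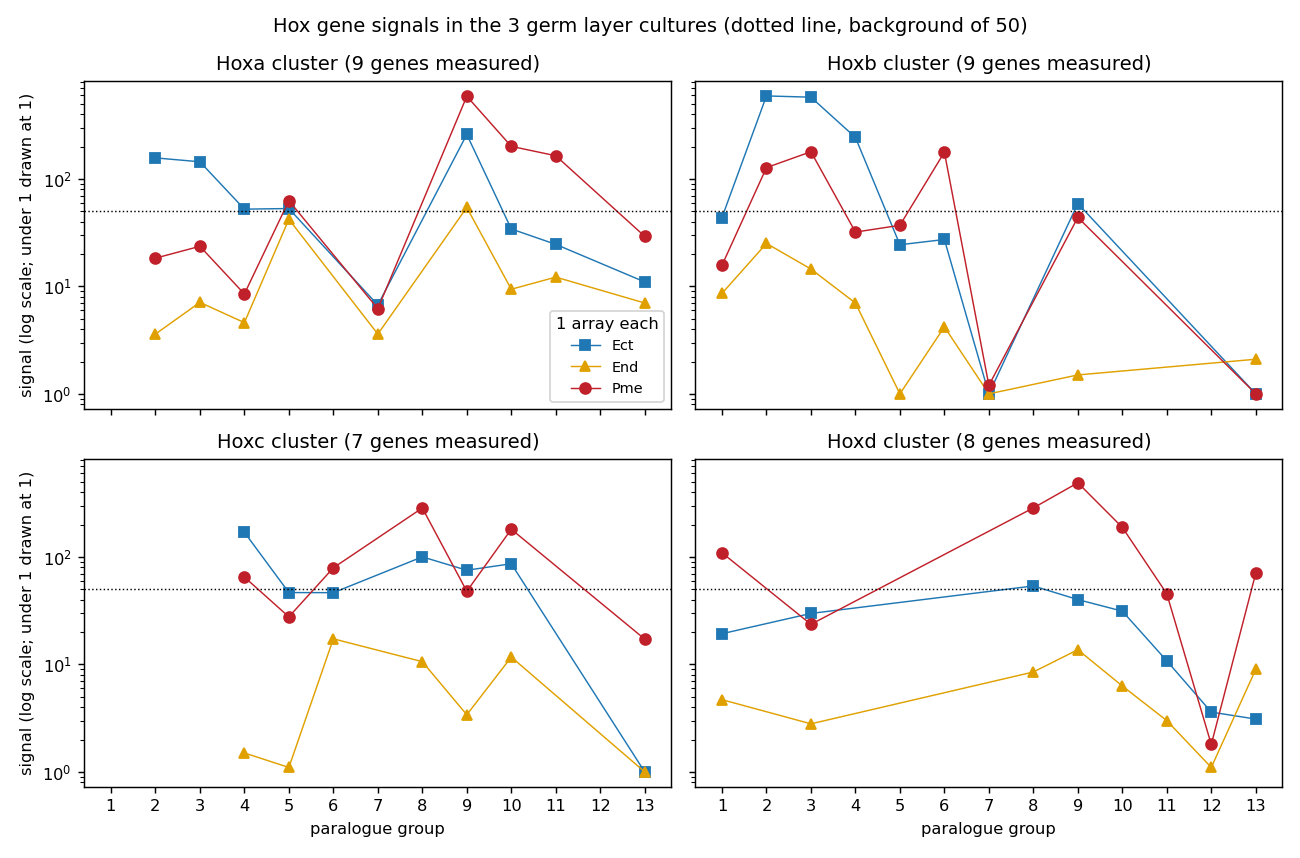
Signals (vertical axis, log scale) of the measured Hox genes in Ect, End and Pme, 1 array each, by cluster (panels) and paralogue group (horizontal axis, 1 to 13). Ect (blue) lies above Pme (red) in groups 2 to 4 of the Hoxa, Hoxb and Hoxc clusters, Pme lies above Ect from group 8 to 11 of the Hoxd cluster, and End (yellow) passes the background of 50 only at Hoxa9.

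Adhesion molecules and stress genes added smaller groups. Cdh11, a cadherin of mesenchyme and bone, had 800.3 in Ect and 118.9 in End against 2208 in Pme, and Cdh3, placental cadherin, 4.7, 32.9 and 106.1. Cdh1, the epithelial cadherin, was under background in Pme, at 34.4, as in Ect, at 34.9, against 2204 in End, and Cdh2 was brightest in Ect. Of 22 stress and immediate early genes 6 were higher and 0 lower. Hspa1b and Hspa1a, inducible heat shock proteins, had 540.4 and 130.6 in Pme, against at most 73.4 in the other layers, and Ier3, Ddit3, Junb and Fosl2 were called too, Junb and Fosl2 not after scaling to the same median, while Fos, Jun and Egr1 were not. Whether handling of the cells played a part in these levels was not tested. Of 15 cell cycle inhibitors, Cdkn2a (67.3, 42.6 and 155.5) and Cdkn2c (125.6, 29.1 and 273.6) were higher, and of 24 proliferation genes 0 were called, with Mki67 at 1222, 1291 and 1212.

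**Figure D4:**
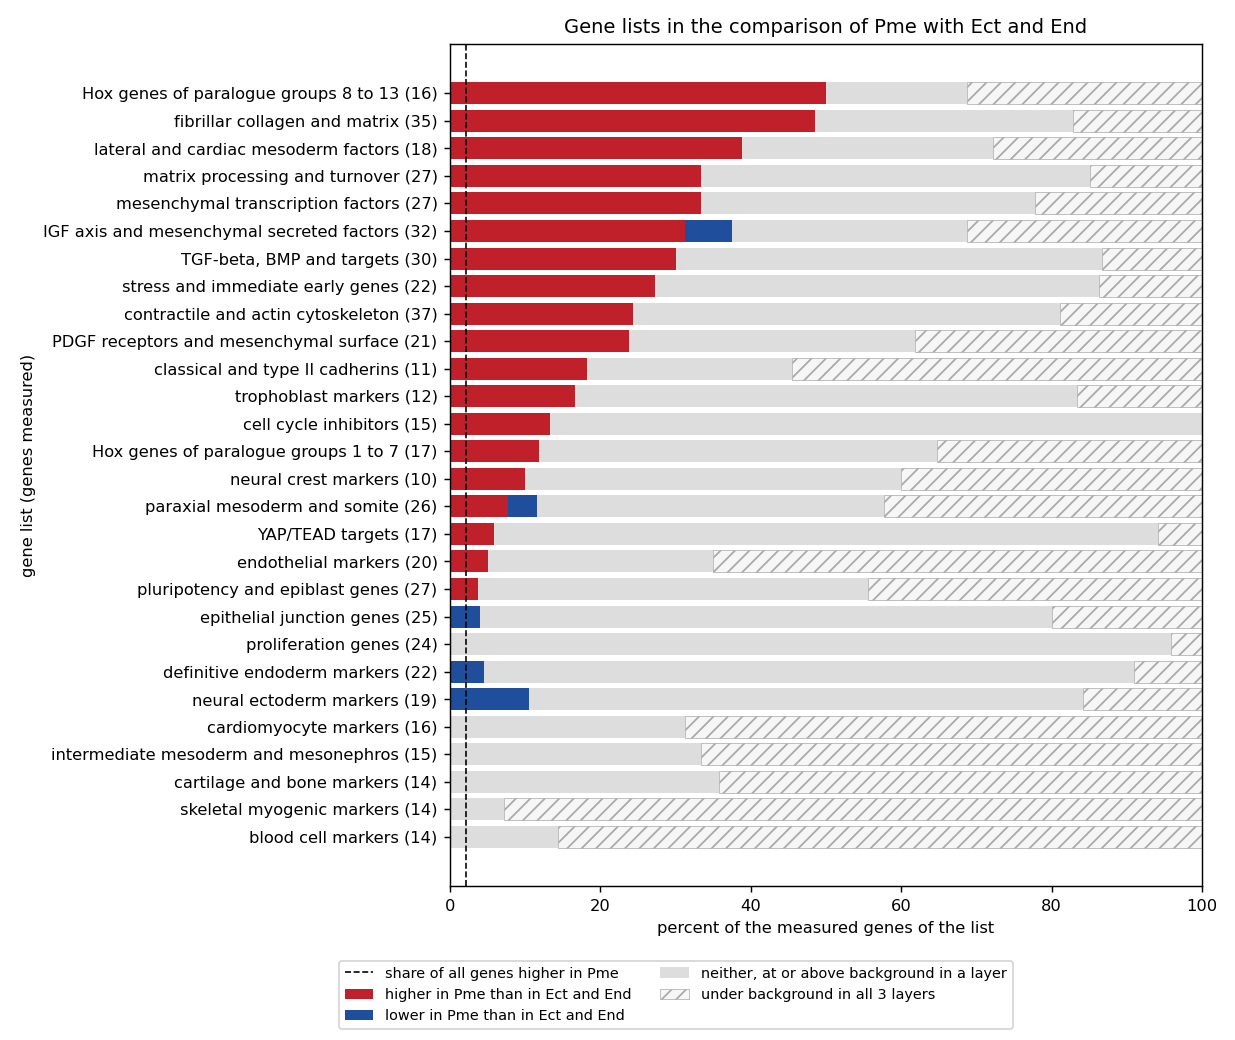
Share of the measured genes of 28 gene lists (number measured in parentheses) that were higher in Pme (red), lower in Pme (blue), called neither way (grey) or under background in all 3 layers (hatched); the dashed line is the 2.07% of all genes that were higher. Posterior Hox genes (8 of 16) and matrix genes (17 of 35) have the highest shares, and skeletal muscle and blood genes are nearly all under background. The lists were chosen with earlier results of these data known, so that the shares are a description only.

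The 73 lower genes had to be high in both ectoderm and endoderm, and their median signal was 59.8 in Pme, with 27 of them under background there. The largest ratio was that of Tox3, a high mobility group box protein, with 1819 in Ect and 998.7 in End against 138.8 in Pme, 7.20-fold lower. Dpysl3, a cytoskeletal protein of growing axons, had 472.3, 582.4 and 67.7. Gldc, the glycine decarboxylase that feeds one-carbon metabolism, had 610.3 in SK7_ESC, 336.7 in Ect and 907.8 in End against 51.5 in Pme. Transcription factors of the early neural plate were among the leading genes: Zic5 (559, 274.4 and 36.4 in Ect, End and Pme), Zic2 (190.5, 196.7 and 24.9) and Sox3 (553.5, 173.1 and 30.1). Stmn2, a microtubule-destabilizing protein of neurons, was at 483.4, 1054 and 118.5, and Gpm6b, a proteolipid of neural cells, at 592.8, 272.3 and 11.4. Tspan5 and Tspan13, tetraspanins, Kif21a, a kinesin, Cotl1, an actin-binding protein, Trp53i11 and the planar polarity cadherin Celsr1 completed the 15 largest ratios, with signals between 37.5 and 314 in Pme. In Brain 57 of the 73 (78.1%) were at or above background, against 90.9% of the 5734 genes at 100 or more in both Ect and End.

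**Figure D5:**
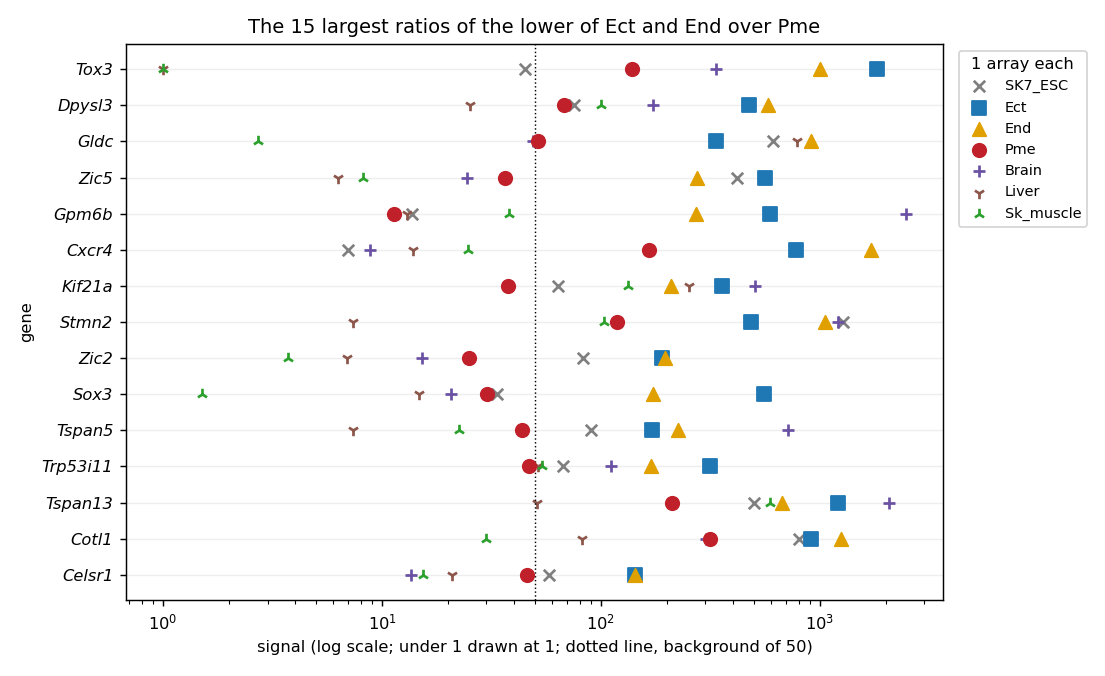
Signals (horizontal axis, log scale) in the 7 arrays, 1 array each, of the 15 genes with the largest ratios of the lower of Ect and End over Pme, from Tox3 (7.20) to Celsr1 (at least 2.86). Pme (red circles) lies to the left of Ect (blue squares) and End (yellow triangles) throughout, and Gpm6b, Kif21a, Tspan5 and Tspan13 are brightest in Brain.

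Lineage markers of ectoderm and endoderm were low in Pme but seldom met the rule for lower genes, because most were low in the other of the 2 layers as well. Of 19 neural ectoderm genes 2 were lower (Zic2 and Sox3) and 0 higher, and 14 were under background in Pme, with a median log2 ratio of Pme over the higher layer of -2.65. Sox2, a factor of neural progenitors and ES cells, had 2369 in Ect and 52.1 in End against 167.3 in Pme, and Gpm6a (257.9) and Ncam1 (290.5) were about as bright in Pme as in Ect, at 240.4 and 278.4. Of 22 definitive endoderm genes 1 was lower (Cxcr4), 16 were under background in Pme and the median was -3.68. Sox17 was at 23.1, Foxa2 at 59.5 and Eomes at 25.7 in Pme, against 2942, 958.2 and 1246 in End. Of 25 genes of epithelial junctions 21 were under background in Pme and 1 was lower, Prom1, which encodes an apical membrane protein and no junction component (826.4, 348.7 and 155). The desmosomal gene Dsp (44.2, 1367 and 1236) and the keratins Krt8 (107.4, 4400 and 2969) and Krt18 (86.4, 4222 and 2451) were bright in both End and Pme. Keratins of simple epithelium and desmoplakin thus accompanied the mesenchymal genes in this array. Of 10 neural crest genes Ets1, also a factor of endothelium and mesenchyme, was higher in Pme, and Sox10 and Foxd3 were under background. Of 27 genes of pluripotency and the epiblast Tbx3 was higher, and 18 were under background in Pme, with Pou5f1 at 25.7 and Nanog at 27.8.

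The 4 arrays outside the comparison gave the called genes' levels elsewhere. Of the 376 higher genes, 200 (53.2%) were at or above background in SK7_ESC, 208 (55.3%) in Brain, 197 (52.4%) in Liver and 250 (66.5%) in Sk_muscle, whereas between 81.3% and 93.4% of all 6661 genes with a Pme signal of at least 100 were so in each of these arrays. Sk_muscle was the brightest of the 4 for 131 higher genes (34.8%), against 23% of those 6661 genes. Liver was the brightest for 105 (27.9%, against 16.9%), Brain for 76 (20.2%, against 19.2%) and SK7_ESC for 64 (17%, against 40.9%). For 52 higher genes (13.8%, against 1.35%) all 4 arrays were under background. These included Hand1, Hand2, Foxf1, Plac1, Cdx2, Wnt5a, Msx1, Twist1, Twist2, Hoxd9 and Grem1. The higher genes were picked for lower signals in Ect and End, and 130 of them were under 200 in Pme. The 6661 genes were not picked in this way, so that the shares are a description and no measure of restricted expression. Of the 73 lower genes, Brain was the brightest of the 4 for 32 (43.8%), against 18.5% of the 5734 genes at 100 or more in both Ect and End. SK7_ESC was the brightest for 31 (42.5%, against 44.2%), Liver for 7 (9.59%, against 15.6%) and Sk_muscle for 3 (4.11%, against 21.7%).

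Further probe sets gave a partial check of the calls. Of the higher genes 251 had another probe set. The next brightest reached 100 in a layer, without which no call was possible, in 117 of them. It was higher in Pme by the same rule in 98. Of the lower genes 43 had another probe set. The next brightest reached 100 in a layer in 30 of these and was lower in Pme in 14. Next brightest probe sets that did not reach 100 in a layer were too dim to be called either way. Others reached 100 and still missed the rule, among them those of Col5a2 (144.2, 14.1 and 238.1 in Ect, End and Pme) and Vangl2 (225.4, 151.6 and 84.7). In 0 genes did the next brightest probe set give the opposite call. Snai2 (54.5, 11.4 and 687.5 in Ect, End and Pme), Hand1 (8.2, 8 and 305.9), Col1a2 (93.5, 60.8 and 735.2) and Cdx2 (4, 1.1 and 172.6) were among those called alike, while the next brightest probe sets of Epas1 (33.3 in Pme), Hoxa10 (6.2) and Igfbp7 (4.5) were under background.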

How the data were processed

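The authors hybridized labelled cRNA to GeneChip mouse arrays with 45101 probe sets, 1 array for each of 7 samples. They deposited linear intensity values and state that the average signal of an array was set to 100. The mean of all deposited signals ranged from 141.2 in Brain to 204.2 in Sk_muscle. Without the highest 2% and the lowest 2% of signals the mean was 100 in every array. The sources used here do not name the method that summarised the probes. The deposited intensity values were named through the platform annotation: 34958 probe sets had 1 gene symbol, 932 had several and 9211 were unnamed here. For each of 18194 genes the probe set brightest by mean log2 signal across all 7 arrays was taken (signals under 1 raised to 1). Signals under 50 were raised to 50, and a ratio of at least 2 was called. With 1 array per group there was no test, and precision is limited by the number of arrays. Members, gene lists and the rule for named genes were chosen with earlier results of these data known. The rule names Pdgfra, Hand2 and Acta2, the 20 largest ratios higher and 15 lower without predicted genes, and, of each list, up to 6 called members, those called against it and defining members under background; other genes named for contrast were chosen after their values were seen. The 28 lists of the report and 4 more were described by counts, medians and summed signals. Alternatives were a background of 20 or 100, quantile normalization, a common median for all arrays, averaging the probe sets of a gene on the log scale, leaving out probe sets of shared sequence, ratios of 3 or 1.5, and the mean of Ect and End as comparator. Identifiers ending in _s_at, _x_at or _a_at were left out as shared sequence, although _a_at marks transcripts of the same gene. The calls were tested on simulated data, which checks that the rule is applied and not how precise the arrays are. Python 3.11.15, numpy 2.4.6, pandas 2.3.3 and matplotlib 3.10.9 were used.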

Additional observations from a re-analysis of the deposited data

How the results depend on the processing

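The 376 higher and 73 lower genes numbered 377 and 74 after quantile normalization and 346 and 93 after scaling to the same median, with 354 and 344 of the higher and 67 and 73 of the lower genes shared. Scaling moved the median log2 difference of Pme from End by -0.10. Leaving out probe sets of shared sequence gave 320 higher and 63 lower of 16593 genes, with 313 and 62 shared. The higher count, the lower count or both moved by over 1.5 times in the alternatives that follow. A background of 100 left 246 higher and 33 lower genes, and a background of 20 gave 138 lower. The geometric mean of probe sets gave 241 higher genes, 233 of them among the 376. A ratio of 3 left 165 and 13, and a ratio of 1.5 gave 736 and 243. The mean of Ect and End as comparator gave 565 and 310, which lowered the share of higher genes among calls from 83.7% to 64.6%. Of 99 called genes that the naming rule gives, 95 kept their call after quantile normalization (not Papss2, Hoxd1, Cdh3 and Fosl2), 97 after scaling (not Junb and Fosl2), 76 with a background of 100 and 83 with the geometric mean. Of 88 that had a probe set without shared sequence, 7 lost the call there. These were Acta2, Dlk1 and Msx1, and also Pdgfrb, Gpm6b, Tpm2 and Hoxa10, whose identifiers end in _a_at, a mark of transcripts of the same gene. In 0 of the 99 named genes was the call reversed in the alternatives run. No paired analysis was possible because each group had 1 array. Signals near background limit what could be called, since a higher gene needed at least 100 in Pme.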

Other observations

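Some further gene groups, put together after the values were seen and so not independent of them, had many members among the calls. Of 36 genes of the limb field, 17 were higher in Pme and 0 lower, some of them already described above. Pitx1, a homeobox factor of the hindlimb, had 9.8 in Ect and 5.3 in End against 304.7 in Pme, at least 6.09-fold higher, and Tbx4, the T-box factor of the hindlimb, had 0.7, 0.9 and 146.8. Tbx5, its forelimb counterpart, was under background at 24.3. Fgf10 and Shh, signals of limb outgrowth and polarity, were at 7.8 and 24.3 in Pme. Of 16 markers of mural cells, 4 were higher (Rgs5, Pdgfrb, Acta2 and Tagln), while Cspg4, Kcnj8, Abcc9, Des, Higd1b and Myh11 were under background in all 3 layers.

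Of 29 imprinted genes, 6 were higher and 1, Nnat, was lower, at 890.2 in Ect and 400.5 in End against 149.8 in Pme. Beside Dlk1, Phlda2, Igf2 and Igf2r these included Slc38a4, an amino acid transporter, at 222.2, 508.5 and 2247, and Peg10. Of 34 interferon-induced genes, 10 were higher and 0 lower. Ifitm1 was at 98.7, 150.9 and 1185, Ifi35 at 45.7, 52.3 and 271.7 and Ifit3 at 44.1, 32.3 and 225.2, whereas Usp18, of the same group, was at 11.3, 705.3 and 56.3. The line is labelled male, yet Xist, which coats an X chromosome that is silenced, was above background in all 4 cultures on a probe set of shared sequence, at 120.9 in SK7_ESC, 80 in Ect and 64.1 in End against 209.2 in Pme, and at most 17.4 in the adult tissues. On its next brightest probe set Xist was above background in Pme alone, at 164.2, against 4.1 in SK7_ESC, 23.9 in Ect and 5.6 in End. The Y-linked gene Eif2s3y was at 551.1, 238.1, 525.2 and 296.7 in the same 4 cultures.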
